A study of Homo sapiens with 6 samples.

Results

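The autophagy machinery was followed here as 35 genes whose proteins build the autophagosome, out of 19775 genes with a probe set of their own on the array. The members were every probe set whose only gene symbol in the platform annotation is 1 of those 35, and these came to 92 of 54675 probe sets. The RNA came from 76N, normal mammary epithelial cells of human origin kept in culture in DFCI-1 medium. Of the 6 cultures, 3 were transfected with a control siRNA (control siRNA, n = 3 arrays) and 3 with an siRNA against Ecd (Ecd siRNA, n = 3 arrays). The siRNA target Ecd is encoded by the gene ECD, named after the fly gene ecdysoneless. All cultures come from this 1 line. No age, genotype or drug distinguishes the groups in the labels, and no source used here gives the siRNA dose, its sequence or the time to harvest.

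Macroautophagy encloses cytoplasm in a double membrane that later fuses with the lysosome. The ULK1 kinase complex starts the process, the class III phosphatidylinositol 3-kinase complex marks the site of nucleation, and ATG9 vesicles with the WIPI and ATG2 proteins feed the growing membrane. A pair of ubiquitin-like conjugation systems then attach the ATG8 family proteins to phosphatidylethanolamine in that membrane, where receptors such as p62 dock their cargo. Most of these steps are controlled on the protein, by phosphorylation, cleavage and lipidation, so a transcript level is not a measure of autophagic flux.

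The siRNA target was lower in the treated cultures. ECD had signals of 1076.6, 1011.4 and 1007.2 with control siRNA and 588.9, 599.8 and 542.5 with Ecd siRNA, so 55.9% of the control mean was left (log2 change -0.82, limma adjusted p = 0.000172; two-sided exact permutation p = 0.1, the smallest that 3 against 3 arrays allow). Array medians were 128.7 to 147.6, and 2 arrays of the same group correlated across genes at 0.977 to 0.981, against 0.952 to 0.961 for arrays of different groups. The 3' to 5' signal ratios of the RNA quality probe sets overlapped between groups, at 0.974 to 0.980 against 0.974 to 1.003 for GAPDH and 1.07 to 1.11 against 1.07 to 1.16 for ACTB. Of 11 listed epithelial markers, KRT5 and KRT14 were the brightest measured (lowest signals on any array 14717.5 and 19871.6). KRT18 was lower with Ecd siRNA (log2 change -0.52), and KRT19 was too dim to be tested.

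After Ecd siRNA, 10 transcripts of the autophagy machinery rose and 1 fell. ULK1, the kinase of initiation, had the largest change, at 2.23-fold. GABARAPL1, GABARAP and MAP1LC3B of the ATG8 family rose by 0.58 to 0.79 on the log2 scale, and the nucleation subunit ATG14 and the transcription factor gene FOXO3 rose 1.53-fold and 1.51-fold. Of the 10 conjugation genes 0 rose and ATG3 fell, counts close to the shares of all tested genes (10.1% higher and 11% lower). All folds are on the log2(signal + 16) scale, on which dim transcripts change less than in signal.

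All 35 members passed the filter on dim signals, which dropped the dimmest 40% of probe sets (a mean signal under 84.6) and took the brightest one left for each gene. The words rose and fell are kept for genes with an adjusted p below 0.05 in limma's moderated test (Benjamini-Hochberg adjustment over 14603 genes). By this test 10 of 35 members rose (28.6%), where 10.1% of all tested genes did. Only 1 fell (2.86%), where 11% of all tested genes did. In 17 members (48.6%) the groups did not overlap, with all treated arrays above the controls in 14 and below them in 3. The share of all tested genes without overlap was 36.4%, with 2639 of the 14603 above and 2674 below. The median log2 change was 0.12 over the members and 0.008 over all tested genes. In RNA from whole cultures, more cells with a transcript and more transcript per cell cannot be told apart.

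**Figure D1:**
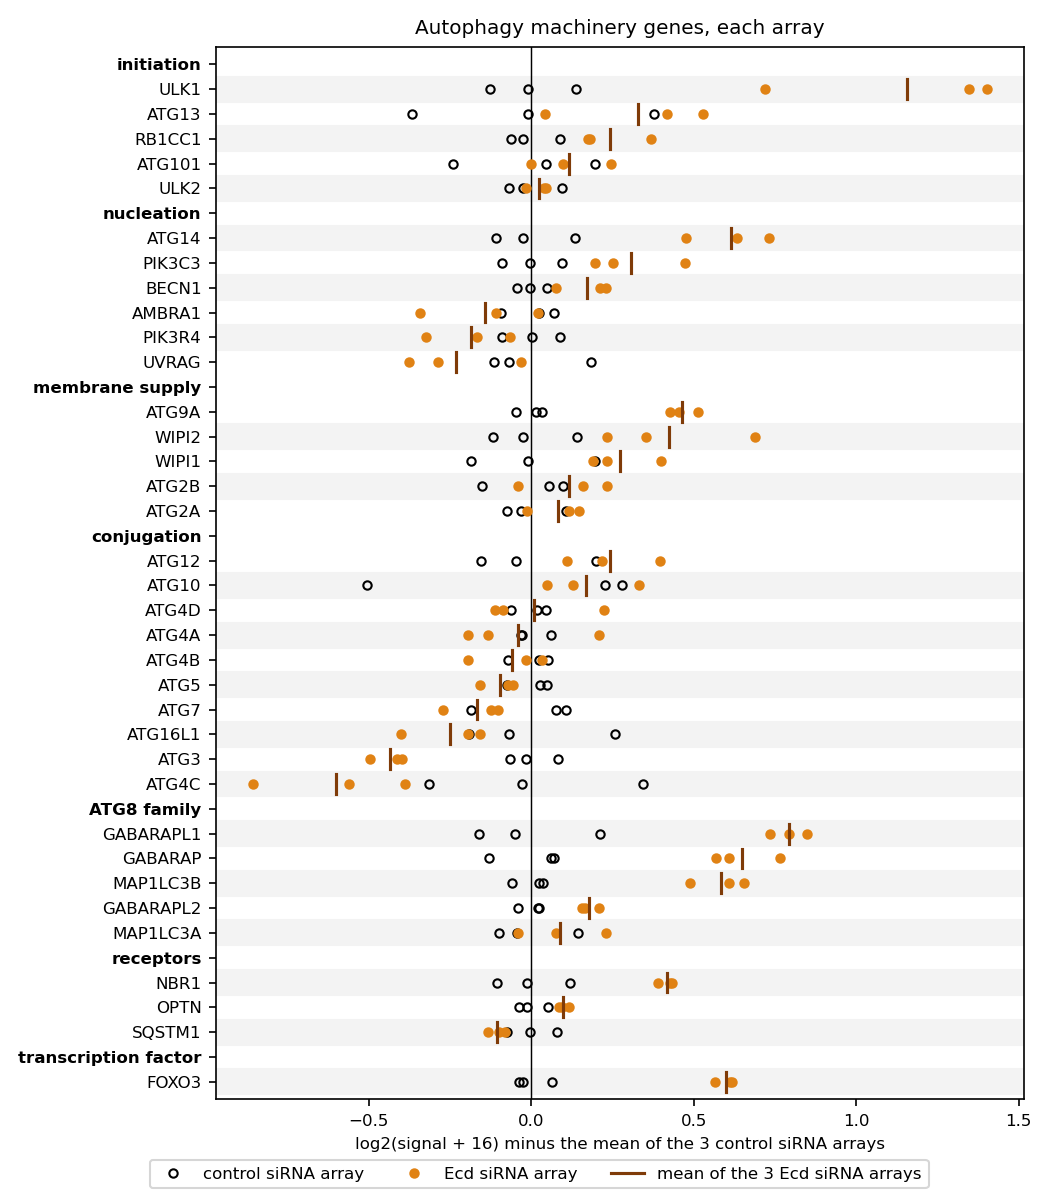
Each of the 35 autophagy genes in each array, grouped by step, as log2(signal + 16) minus the mean of the 3 control siRNA arrays. Open circles are control arrays, filled circles Ecd siRNA arrays and bars the treated mean. In ULK1, ATG14, ATG9A, GABARAPL1, GABARAP, MAP1LC3B, NBR1 and FOXO3 the treated arrays lie clear to the right, while most conjugation genes straddle the control arrays.

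The promoters of the members were read from RefSeq (GRCh38.p14), as windows from 250 bases before to 50 after each annotated start. Of the 35 genes, 31 had at least 1 of the 41 windows. The letters of 10 short motifs, chosen after the changes were known, were searched on both strands. CACGTG, the E-box read by TFEB, TFE3 and MITF and also by MYC with MAX, was in the windows of 2 members, ATG3 and ATG14, and in 7.26% of all 35116 promoter windows. Its longer form TCACGTGA, which always contains the shorter one, was in ATG3 alone, from base 5 after the start, and in 0.98% of all windows. The forms CACGTGA and GTCACGTG, which overlap the same E-boxes, were also in ATG3 and ATG14 and in 3.71% and 2.40% of all windows. The cyclic AMP response element TGACGTCA was in the GABARAPL1 window and in 1.85% of all windows, and the AP-1 motif TGACTCA was in 1 of the FOXO3 windows and in 4.95% of all. GTAAACA, a FOXO motif, was in 0 member windows and 3.42% of all, and the E2F motifs TTTGGCGC and TTTCCCGC and the ATF4 motif TGATGCAA were in 0 member windows and 0.65%, 1.63% and 0.87% of all. A match describes the letters and is not a bound site. The 120 bases before the start are shown for 3 genes with a match, picked after their changes were seen: ATG14 and GABARAPL1, which rose, and ATG3, the member that fell. Capitals mark the matched motif.
ATG14 (chr14:55411831-55411950, minus strand): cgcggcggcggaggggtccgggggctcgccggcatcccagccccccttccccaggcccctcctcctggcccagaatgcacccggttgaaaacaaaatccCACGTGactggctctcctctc
ATG3 (chr3:112561963-112562082, minus strand): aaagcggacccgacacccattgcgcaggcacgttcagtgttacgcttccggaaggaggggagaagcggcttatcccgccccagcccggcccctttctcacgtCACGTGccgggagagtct
GABARAPL1 (chr12:10212757-10212876, plus strand): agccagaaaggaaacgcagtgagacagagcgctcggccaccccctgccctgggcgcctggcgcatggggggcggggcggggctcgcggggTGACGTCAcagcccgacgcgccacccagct

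The E-box of ATG14 began 21 bases before the start. ATG3 held 2, at 18 bases before the start and at base 6 after it, the latter inside TCACGTGA, which the ATG14 window lacked. Member windows had a median GC content of 65.0% (58.7% over all windows).

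Of the 5 initiation genes, ULK1 rose and the other 4 did not pass the test. ULK1 encodes the protein kinase that receives signals from AMPK and mTORC1. Its control signals of 380.3, 313.5 and 341.9 compare with 576.6, 935.8 and 901.2 after Ecd siRNA. The groups were apart by a wide gap, although the treated array of replicate 1 stood well below the other treated arrays. The mean went from 345 ± 33.5 to 805 ± 198 (SD, n = 3 per group), or 1.16 on the log2 scale (SE 0.18, adjusted p = 0.00105). It was read by 1 probe set.

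The paralog ULK2 stayed near its control level, with a mean of 607 ± 37.3 against 616 ± 14.4 and a log2 change of 0.02 (95% interval -0.21 to 0.25). RB1CC1, which encodes the scaffold FIP200, was higher in every treated array than in any control array, at 0.24, but missed the threshold (adjusted p = 0.0567). RB1CC1 passed, at 0.23 to 0.26, with quantile normalization, a filter keeping the upper 40%, averaged probe sets, array weights and the replicate block. ATG13, the adaptor of the complex, was at 0.33 with a wide interval of -0.06 to 0.72, since its control signals ran from 1344.3 to 2263.5. Without control replicate 2 ATG13 was at 0.52 and passed (adjusted p = 0.0443). ATG101, the partner of ATG13, was at 0.11. Within each array, the log2 ratio of ULK1 to ULK2 was higher with Ecd siRNA by 1.13 (95% interval 0.48 to 1.79), with groups that did not overlap. This pair was chosen after the values were seen, so the interval is no separate test. The two-sided exact permutation p was 0.1, the smallest possible here.

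Among the 6 nucleation genes, ATG14 and PIK3C3 rose, and 4 did not pass. ATG14 encodes the subunit that directs the lipid kinase to autophagosome formation. Its control signals were 1015.5, 854.8 and 907.5, and with Ecd siRNA they were 1542.8, 1291.9 and 1441.4. No treated array came near the control range, and the log2 change was 0.61 (SE 0.10, adjusted p = 0.00175). PIK3C3 encodes VPS34, the catalytic subunit. Its signals were 1439.9, 1528.6 and 1639.4 against 2134, 1829.1 and 1759.9, apart but by a small gap, with a log2 change of 0.31 (adjusted p = 0.0441). That call was lost in 9 of 17 alternatives, among them a common median (0.30, adjusted p = 0.172), no filter (0.31, 0.0561), the mean of its probe sets (0.39, 0.137) and eBayes without trend (0.31, 0.112). Leaving out control replicate 1 gave 0.26 (adjusted p = 0.162), control replicate 2 gave 0.30 (0.0966), Ecd siRNA replicate 1 gave 0.22 (0.121) and Ecd siRNA replicate 2 gave 0.33 (0.0726).

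The subunits that ATG14 and PIK3C3 share their complex with did not pass in either direction. BECN1, the Beclin 1 gene, was at 0.17 (adjusted p = 0.119), and PIK3R4, which encodes the regulatory subunit VPS15, was at -0.19 (adjusted p = 0.224). UVRAG, whose protein takes the place of ATG14 in the endosomal form of the complex, was at -0.23 (95% interval -0.58 to 0.11). AMBRA1, a Beclin 1 regulator, was at -0.14. So 3 of the 6 genes lay above 0 and 3 below it, and the median of 0.01 carried no direction. It was just below 0 without Ecd siRNA replicate 1 (-0.003) or 3 (-0.009). With the probe sets of a gene averaged it was -0.11, but averages here and elsewhere also take in probe sets under the filter. A BECN1 probe set under the filter read 142, 13.7 and 26.1 in controls against 19.4, 26.5 and 13.

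The 5 genes of membrane supply all lay above 0, with a median of 0.27, and 2 of them rose. ATG9A encodes the lipid scramblase of the vesicles that seed the membrane. Its signals were 1357.1, 1416.7 and 1435.4 in controls and 1928.1, 2006.9 and 1890.7 with Ecd siRNA. Both groups were tight and well apart, with a log2 change of 0.46 (SE 0.08, adjusted p = 0.00155). WIPI2, whose protein binds phosphatidylinositol 3-phosphate and recruits ATG16L1, had signals of 2491.2, 2983.3 and 2655.3 against 4364.1, 3453.3 and 3175.8. The treated replicate 1 was far above the other treated arrays, and the change was 0.42 (adjusted p = 0.0257). It did not pass without that array (0.29, adjusted p = 0.0563), without control replicate 1 (0.37, 0.104) or 3 (0.41, 0.0704), or in its brightest probe set not named _s or _x (0.27, 0.297). The call was also lost with a common median (0.41, 0.0538), averaged probe sets (0.29, 0.0714) and eBayes without trend (0.42, 0.102). That makes 7 of 17 alternatives.

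WIPI1, the paralog, was at 0.27 and did not pass (adjusted p = 0.121), but passed with its probe sets averaged (0.34). The within-array log2 ratio of WIPI2 to WIPI1 moved by 0.15 with an interval of -0.39 to 0.69, so no difference between them was resolved. The lipid transfer genes ATG2A and ATG2B were at 0.08 and 0.12. The median of this step moved with single arrays, to 0.37 and 0.18 on leaving out control replicates 2 and 3 and to 0.21 on leaving out Ecd siRNA replicate 2.

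In the ATG8 family 3 of 5 genes rose, and the median log2 change was 0.58. These small ubiquitin-like proteins coat the autophagosome membrane and bind receptors. GABARAP had control signals of 6698.5, 5831 and 6666.8 and treated signals of 10869.6, 9472.6 and 9747.3, a log2 change of 0.65 (SE 0.08, adjusted p = 0.000222). MAP1LC3B, the LC3B gene, went from 3948, 3692.6 and 3916.9 to 6075.9, 5405.3 and 5884.7 (0.58, SE 0.07, adjusted p = 0.000205). GABARAPL1 went from 879.9, 813.8 and 1059.2 to 1528.7, 1655.9 and 1593.5 (0.79, SE 0.11, adjusted p = 0.000453). In each of the 3 genes every treated array was well above every control array.

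GABARAPL2, the GATE-16 gene, was also higher in every treated array, at 6771.6, 6722.2 and 6972.4 against 6129.4, 5858.2 and 6119, but the step of 0.18 just missed the threshold (adjusted p = 0.0588). With a filter keeping the upper 40% of probe sets GABARAPL2 passed. MAP1LC3A was at 0.09 (95% interval -0.18 to 0.35) in its brightest probe set. Tested on their own, its other probe sets were at 0.29, without overlap (adjusted p = 0.127), and at 0.27 (0.496). The dimmer probe set of MAP1LC3B was at 0.33, so how far these genes differ depends on the probe sets taken. Paralogs were also compared as log2 ratios within arrays, from the brightest probe set of each gene, in pairs chosen after the values were seen. GABARAPL1 gained 0.62 on GABARAPL2 (95% interval 0.33 to 0.91), GABARAP gained 0.47 on it (0.25 to 0.69), and MAP1LC3B gained 0.50 on MAP1LC3A (0.09 to 0.90). Of the 6 paralog pairs compared, counting ATG2B with ATG2A (0.03, interval -0.47 to 0.53), these 3 and ULK1 with ULK2 had ratios that did not overlap between groups. Each gave the smallest two-sided exact permutation p that 3 against 3 arrays allow, 0.1, or 0.15 when adjusted over the 6 pairs.

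The conjugation step, which cleaves the ATG8 proteins and joins them to lipid, had a median of -0.08, with 7 of 10 genes below 0 (7136 of 14603 among all tested genes). Other steps also had negative medians in some settings. Nucleation was at -0.11 when all probe sets were averaged, also those under the filter. The receptors were at -0.06 when probe sets not named _s or _x were preferred. ATG3, the E2-like enzyme that transfers ATG8 proteins to phosphatidylethanolamine, was the 1 member of all 35 that fell. Its signals were 3747.1, 3875.1 and 4156.3 in controls and 2776.5, 2971.9 and 2941.7 with Ecd siRNA, a log2 change of -0.44 (SE 0.07, adjusted p = 0.00151). The groups were well apart in this probe set. A second, dim probe set of ATG3 (299.2, 175 and 123.5 against 118.1, 257.2 and 138.9) had overlapping groups. The call was lost with that probe set alone (-0.19, adjusted p = 0.766) and with the mean of both (-0.31, 0.282).

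ATG4C, 1 of the 4 cysteine proteases that process ATG8 proteins, had the largest negative value, -0.60, from 258.2, 209.1 and 339.2 to 173.8, 138.5 and 197.7. It did not pass (adjusted p = 0.0766), but did without control replicate 2 (-0.76, 0.0498). The other proteases ATG4A, ATG4B and ATG4D were at -0.04, -0.06 and 0.01. ATG7, the shared E1-like enzyme, was at -0.17 and ATG16L1, which places the ligase on the membrane, at -0.25. ATG10, the E2-like enzyme for ATG12, was at 0.17 with an interval of -0.32 to 0.66, so a change of either sign was not resolved.

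The ubiquitin-like ATG12 and its target ATG5 differed between probe sets. In its brightest probe set ATG12 was at 0.24 (adjusted p = 0.175). A second one read 402.5, 383.2 and 450.6 against 571.8, 628.7 and 540.4, without overlap, and passed when every probe set was tested on its own (0.48, adjusted p = 0.0233). The remaining one was at 0.51 (adjusted p = 0.113), and ATG12 rose when its probe sets were averaged (0.41, adjusted p = 0.0495), which makes 1 of 10 conjugation genes higher in that setting. ATG5 was at -0.10 in its brightest probe set (adjusted p = 0.434). Another, at 1447.9, 1456.3 and 1412.1 against 1179.9, 1124.3 and 1223.1, was lower in every treated array and passed (-0.29, adjusted p = 0.0383), and the third was at 0.03.

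Among the cargo receptors NBR1 rose while SQSTM1 and OPTN did not pass. NBR1 had signals of 2805.7, 2994.1 and 3276.8 in controls and 4068.2, 4084 and 3961.9 with Ecd siRNA, and the log2 change was 0.42 (SE 0.07, adjusted p = 0.00265). The treated arrays were close together and all above the controls. The rise was seen in both bright _s_at probe sets. A dim probe set without _s in its name was at -0.06 (adjusted p = 0.904). The mean of all probe sets, also those under the filter, was at 0.12 (adjusted p = 0.632). SQSTM1, which encodes p62, had signals of 4564.2, 4103.8 and 4310.4 against 3937.7, 4081.1 and 4031.9. The groups did not overlap, yet the change of -0.11 was small (95% interval -0.25 to 0.04). OPTN, the optineurin gene, was at 0.10 (95% interval -0.05 to 0.24).

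FOXO3, a forkhead transcription factor known to act on autophagy genes, rose. Its signals were 2761.6, 2739.7 and 2938.5 in controls and 4300.1, 4168.2 and 4325.4 with Ecd siRNA. Neither group varied by more than a few percent around its mean, and the change of 0.60 (SE 0.07) had the lowest adjusted p of the members, 0.000123.

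**Figure D2:**
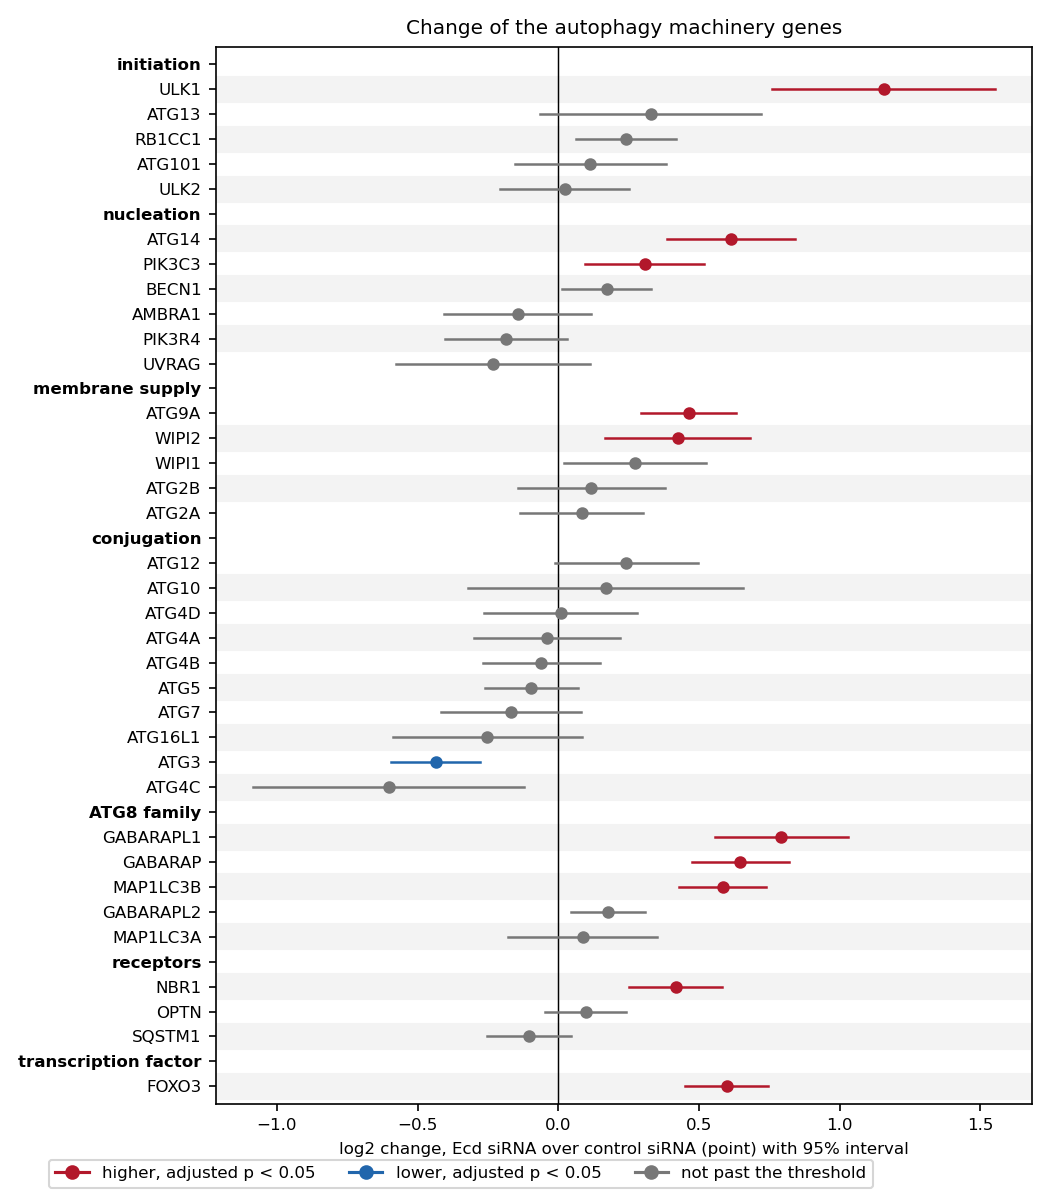
Log2 change of the 35 autophagy genes after Ecd siRNA, with the 95% interval from limma, ordered within each step. The 10 genes that rose and the 1 that fell (ATG3) are coloured. ULK1, at 1.16, is the largest change, and the interval of ATG4C, at -0.60, is wide although its point lies lowest.

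The 24 members that did not pass lay between -0.60 and 0.33, and 20 of them within 0.25 of 0. The half-width of their 95% intervals ran from 0.13 to 0.49 with a median of 0.25, so smaller changes than that were often not detectable with 3 arrays per group. The intervals, unlike the calls, are not adjusted over genes, so larger changes could also miss. ATG4C did not pass although its interval was -1.08 to -0.12.

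The separate probe sets of a gene were also tested on the same arrays. They include the brightest probe set of each gene, already used above, so these counts are not independent of the gene counts. Several probe sets of the same gene are counted apart. Of the 92 probe sets, 80 passed the filter. With each tested on its own, 17 of them rose (21.3%), where 8.3% of all 27015 tested probe sets did, and 2 fell (2.50%), where 8.62% did. Both probe sets of GABARAPL1 rose, and the second had the larger change (713.7, 845.3 and 641.8 against 1837.1, 1331.7 and 1332.1, log2 change 1.01). Both of MAP1LC3B rose too, at 0.58 and 0.33. All 4 of FOXO3 lay above 0, from 0.24 to 0.60, and 2 rose.

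The 5 tested probe sets of PIK3C3 all lay above 0, from 0.09 to 0.94. Those that passed were 2 of the dimmer ones, at 254.1, 179.9 and 205.8 against 531.5, 357.2 and 393.5 (0.94) and 283.6, 245.6 and 272.6 against 408.9, 407.9 and 374.2 (0.55), while the brightest did not pass here (adjusted p = 0.059). The 5 of WIPI2 ranged from 0.21 to 0.42, all above 0, with 2 rising. All 3 of SQSTM1 lay below 0, and none passed. In 8 of the 22 genes with several tested probe sets the signs were mixed. The brightest probe set of 19 of the 35 genes has _s or _x in its name, and such probe sets can bind transcripts of more than 1 gene.

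**Figure D3:**
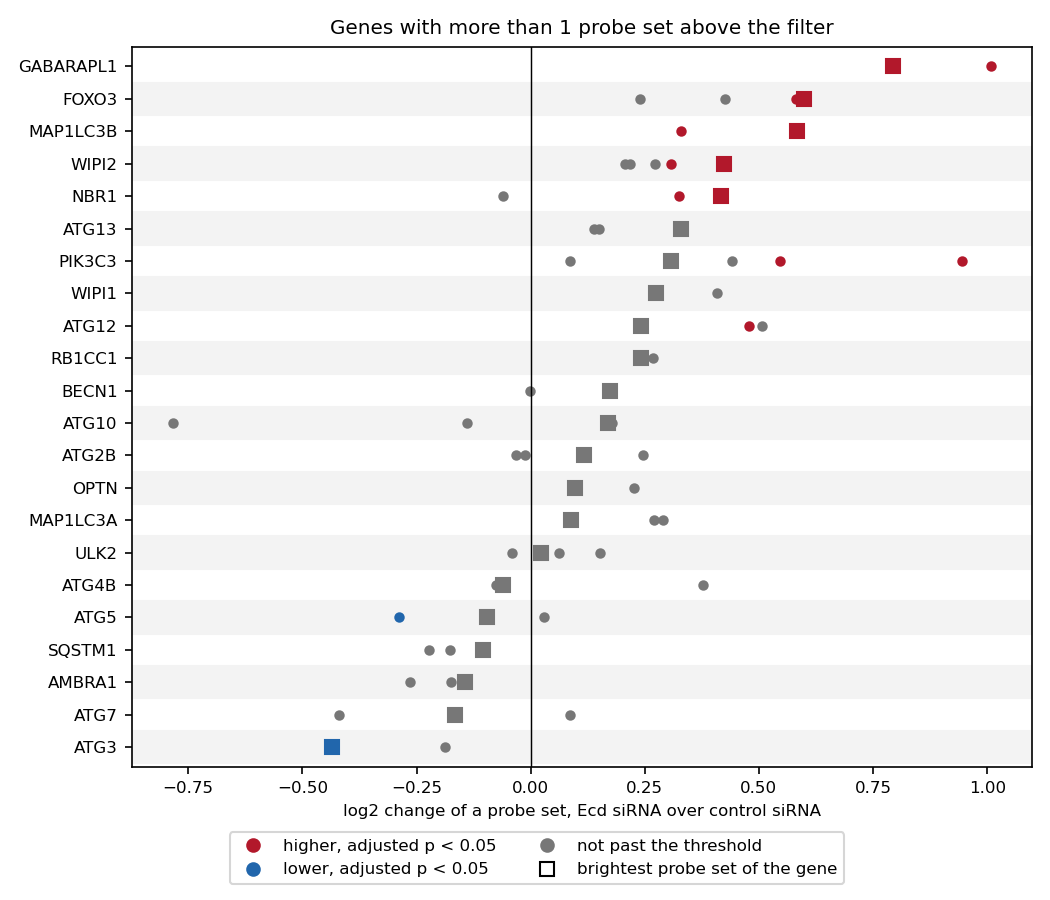
Log2 change of every probe set above the filter, for the 22 autophagy genes with more than 1, ordered by the change of the brightest (square). GABARAPL1, FOXO3, MAP1LC3B, WIPI2 and PIK3C3 have all their points right of 0, and ATG10 spreads from -0.78 to 0.18.

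Genes of the pathway outside the 35 were taken from a list of 54, of which 53 passed the filter (MAP1LC3C did not). The test called 12 of them higher (22.6%) and 1 lower (1.89%), the remaining 40 did not pass, and the median was 0.16. Over all tested genes the shares were 10.1% and 11% and the median 0.008. Among 11 further receptors 4 rose: BNIP3L (0.66) and BNIP3 (0.47), receptors on mitochondria, RETREG1 (0.55), the receptor FAM134B of the endoplasmic reticulum, and TAX1BP1 (0.38), a partner of NBR1 in aggregate clearance. BNIP3L went from 4745.6, 4299.4 and 4770.6 to 6922, 7270.8 and 7643.8 (adjusted p = 9.04e-05), far outside the control range. CALCOCO2, the NDP52 gene, was at 0.15 and did not pass. RETREG1 and TAX1BP1 lost their calls when probe sets not named _s or _x were preferred (adjusted p = 0.105 and 0.262), and averaging probe sets ended the calls of RETREG1 (0.39, adjusted p = 0.102) and, below, of TP53INP1 (0.41, 0.181), PLEKHM1 (0.29, 0.443) and FOXO1 (0.25, 0.479).

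In the sublist of upstream kinases and their regulators 2 of 16 rose (12.5%) and 1 fell (6.25%). These counts are close to the shares of all tested genes (10.1% higher and 11% lower). SESN3, a sestrin gene whose product restrains mTORC1, had the largest change of the list, from 1312, 1427.7 and 1226.5 to 2197.5, 2289.7 and 2965.6 (0.89, adjusted p = 0.00038). PRKAA2, an AMPK catalytic subunit gene, was dim, at 126.8, 154.3 and 172.7 against 237.3, 259.9 and 267.2 (0.70, adjusted p = 0.0211). MLST8, an mTOR complex subunit gene, fell from 625.8, 562.8 and 753.2 to 461.9, 474.1 and 457.3 (-0.46, adjusted p = 0.027). MTOR itself was at 0.22 and RPTOR at 0.38, both with overlapping groups. DDIT4 (0.16, adjusted p = 0.0509) and TSC2 (0.38, 0.0587) were higher in every treated array but did not pass.

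Of the 8 transcription regulators TP53INP2 (0.71), TP53INP1 (0.63) and FOXO1 (0.40) rose. TFEB, TFE3 and MITF, the factors of lysosomal and autophagy genes that bind E-boxes, were at 0.17, 0.14 and 0.02, and none passed. Of the 10 genes for fusion with lysosomes PLEKHM1 (0.40) and VPS41 (0.33) rose, and RAB7A (0.31) and TECPR1 (0.37) missed the threshold with adjusted p = 0.0645 and 0.0644. NRBF2, a subunit that joins the ATG14 form of the kinase complex, rose by a small step (0.28, adjusted p = 0.0296). TMEM41B (-0.22, adjusted p = 0.069) and RHEB (-0.15, 0.0995) were lower in every treated array but did not pass. Of the 53 genes, 21 were higher and 4 lower in every treated array than in any control array. Over all 14603 tested genes these counts were 2639 and 2674.

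Some calls on this list were lost under other processing of all 6 arrays. With a common median VPS41, FOXO1, NRBF2, MLST8 and PLEKHM1 (adjusted p = 0.0501) did not pass. Without the eBayes trend the same genes except PLEKHM1 did not pass, and without a filter VPS41 and FOXO1 did not. VPS41 also missed when probe sets not named _s or _x were preferred (adjusted p = 0.06). Several calls also depended on single arrays. VPS41 and FOXO1 were each lost on leaving out any of 5 arrays, where they reached adjusted p = 0.158 (0.24, without Ecd siRNA replicate 2) and 0.152 (0.33, without control replicate 1). NRBF2 was lost when control replicate 1 (0.28), 2 (0.27) or 3 (0.30) or Ecd siRNA replicate 3 (0.23) was left out, with adjusted p up to 0.101. PRKAA2 was lost when control replicate 1 (0.59, 0.0704) was left out, and likewise for Ecd siRNA replicate 2 (0.69, 0.0652) or 3 (0.67, 0.0684). MLST8 was lost when control replicate 1 (-0.47) or 3 (-0.34) was left out, as well as any Ecd siRNA array (-0.45, -0.47 and -0.44 for replicates 1, 2 and 3). For VPS41 the other arrays were control replicates 1 (0.32), 2 (0.33) and 3 (0.35) and Ecd siRNA replicate 3 (0.32), and for FOXO1 they were control replicate 2 (0.36) and Ecd siRNA replicates 1 (0.42), 2 (0.45) and 3 (0.32).

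**Figure D4:**
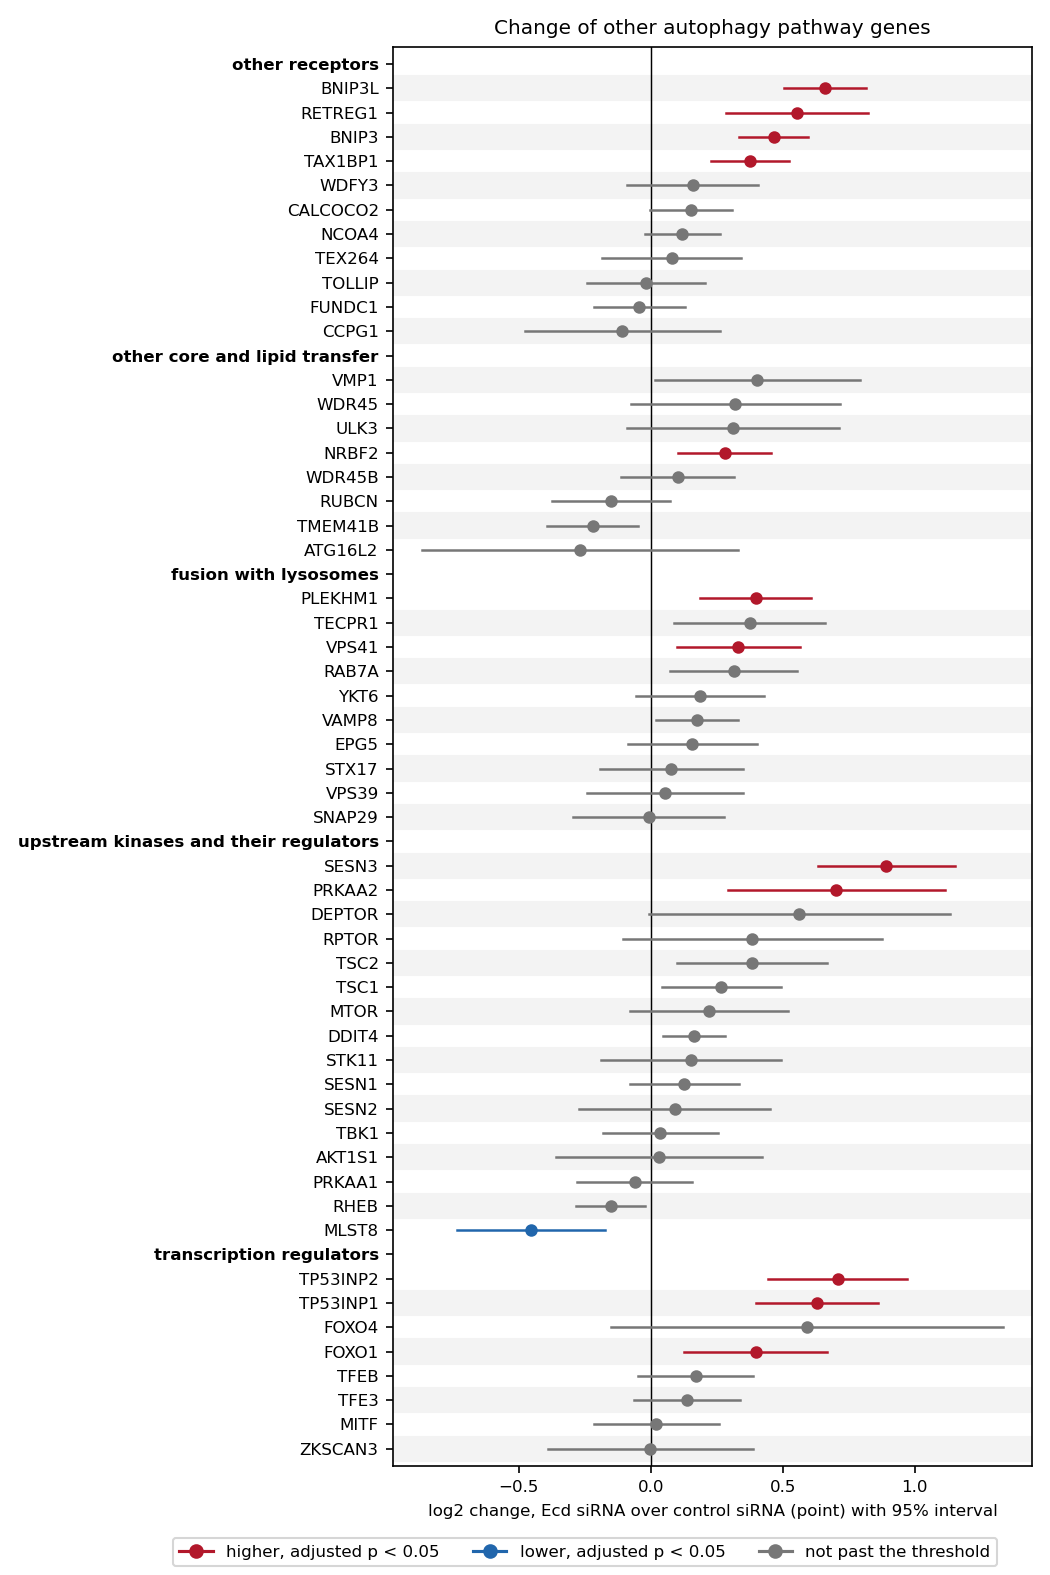
Log2 change with its 95% interval for 53 other autophagy genes, by role. SESN3 (0.89), TP53INP2 (0.71) and PRKAA2 (0.70) lie farthest right among the coloured genes, MLST8 (-0.46) is the 1 that fell, and TFEB, TFE3 and MITF have intervals that include 0.

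Markers of other cell types were read beside these counts. Of 17 fibroblast markers 11 passed the filter, and 7 of them rose: LOX (1.38), FAP (1.03), COL6A1 (0.91), COL5A1 (0.89), MMP2 (0.78), FBLN1 (0.76) and COL1A1 (0.52). COL1A2 (-0.17), DCN (0.11), THY1 (-0.32) and TWIST1 (0.06) did not pass. The other 6, COL3A1, COL6A3, LUM, PDGFRA, PDGFRB and POSTN, were under the filter. The summed signal of all 17 was 13372 to 13741.8 in the control arrays and 23424.9 to 26056.4 in the treated arrays. Of 11 epithelial markers 8 had a probe set of their own, and 1 of these, KRT19, was under the filter. The 8 summed to 65863.1 to 71385.8 in the control arrays and 68898.2 to 76602.4 in the treated arrays. Of the 7 that passed the filter CDH1 (0.25) and ITGB4 (0.29) rose and KRT18 (-0.52) fell. Of the immune, endothelial and adipocyte markers only LYZ and PECAM1 passed the filter, and neither passed the test. The part of the fibroblast markers' rise in the autophagy genes' values was not tested.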

How the data were processed

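RNA of 6 cultures was measured on 1-colour Affymetrix arrays. The authors deposited 1 linear intensity per probe set and array, produced with MAS5 per the submitters' processing notes (no source used here gives its version or its scaling target). The table had 54675 probe sets, 0 missing values and no detection calls. Since arrays are scaled to each other, a general rise or fall in RNA cannot be read from them.

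Single-symbol probe sets of the platform annotation, which dates from before the current symbols, were used, with the brightest per gene. Values became log2(signal + 16) and were tested in limma 3.58.1 under R 4.3.3 (lmFit, eBayes with trend, no covariates). The test was tried on simulated data. Every called changed gene had the right sign, but the run was set to stop otherwise. Recovery was lower with each gene's raw residual SD as noise than with limma's moderated SD. A minimum first set for recovery was missed with the raw SD and was then dropped. Single values were compared with scipy 1.17.1. The members, gene lists, motifs and named genes were chosen with earlier results of these data known; every member, other pathway gene or marker that passed was named, and the paralog pairs, motifs, printed stretches and other named genes were picked after the changes were seen. The labels call the cultures biological replicates, so p-values measure the spread between 6 cultures of 1 line. Whether the replicate numbers pair the cultures is not known. Correlations of deviations from the group mean were -0.009, 0.079 and 0.152 for equal numbers 1, 2 and 3. For unequal numbers they ran from -0.134 to 0.057. Alternatives covered pseudocount, scaling, filter, probe set choice, eBayes trend, array weights, the replicate block and each array left out. Averaging took all single-symbol probe sets of a tested gene, also those under the filter.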

Additional observations from a re-analysis of the deposited data

Results flagged for a closer look

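Probe sets with several gene symbols stood outside the gene tests, and 2 of those that include a member were higher in every Ecd siRNA array than in any control array. The one shared by GABARAPL1 and GABARAPL3 read 1866.4, 1537.8 and 1753.3 against 3094, 2787.3 and 2956.3, a ratio of means of 1.71. One shared by FOXO3 and FOXO3B read 346.7, 325.9 and 339.1 against 535.3, 554.1 and 473.1, a ratio of 1.54. Neither was tested. The other 2 probe sets shared by FOXO3 and FOXO3B had overlapping groups.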

How the results depend on the processing

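Of the 11 members that passed, 7 kept their call and direction under all 17 alternatives: ULK1, ATG14, ATG9A, MAP1LC3B, GABARAP, GABARAPL1 and FOXO3. Not every alternative could move them. ULK1, ATG14, ATG9A and GABARAP have 1 probe set of their own each, so probe set choice left their log2 changes the same. For MAP1LC3B, GABARAPL1 and FOXO3, preferring probe sets not named _s or _x kept the same probe set, and only averaging differed. The count of members that rose stayed between 8 and 12. The count that fell was 0 when probe sets were averaged, 0 when those not named _s or _x were preferred, 2 with the replicate block and 1 to 2 on leaving out 1 array. NBR1 reversed to -0.059 in its probe set not named _s or _x. PIK3C3, WIPI2, ATG3 and NBR1 were the calls lost in some setting. In the other pathway genes the count that fell was 0 with a common median and without the eBayes trend. It was 2 with quantile normalization and with array weights, and 0 to 1 on leaving out 1 array. The count that rose was 8 with a common median, 15 with a filter keeping the upper 40%, and 8 to 11 on leaving out 1 array. The replicate block, whose numbers are not known to pair cultures, gave 3277 called genes against 3075, lost PIK3C3 (adjusted p = 0.0557), kept the other 10 of the 11 member calls and added ATG13, RB1CC1 and ATG4C. All genes called were 2206 to 2784 with 1 array left out, and ECD was at -0.85 to -0.78. The cause of these shifts was not tested. The number of arrays limits the precision.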
